A study of Mus musculus with 2 samples.

Results

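Head-to-head gene pairs, 2 protein-coding genes on opposite strands whose 5' ends point away from each other and lie at most 1000 bp apart, were examined for open chromatin. Of the 20807 protein-coding genes of chromosomes 1 to 19 in GENCODE M21, 1448 genes (6.96%) formed 734 such pairs, and 20 genes belonged to 2 pairs. The rule for members uses the annotation and no measured value. The region of a pair was the span between both 5' ends with 250 bp added on each side. Both 5' ends were 1 to 987 bp apart, with a median of 128 bp. They were at most 100 bp apart in 306 pairs, over 100 and up to 200 bp in 200, up to 300 bp in 96, up to 500 bp in 64 and up to 1000 bp in 68. Promoters of this kind are usually called bidirectional, but transcription was not measured here, so the pairs are named by their annotated starts. Pairs whose 5' ends overlap, such as Hspd1-Hspe1 and Surf1-Surf2, are not members.

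DNase-seq maps open chromatin by cutting it with the nuclease DNase I. The 2 libraries were biological replicates of MN1, an immortalized mouse cell line of strain B6NCrl, and both had been treated with 10 nM methyltrienolone, a synthetic androgen. They form 1 group. The labels name no tissue, age or sex, and no untreated library was analysed here, so all values are levels in treated cells. The authors' lists held 189648 distinct peaks of 150 bp on the autosomes, X and Y in replicate 1 and 170745 in replicate 2, each with a deposited score from 1 to 150, and wider regions called hotspots. The sequencing depth behind these lists is unknown. For replicate 1 the labels name sequencing instruments and for replicate 2 none, so instrument and replicate cannot be told apart.

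In a head-to-head promoter, both genes are transcribed outward from a shared stretch of DNA that is kept free of nucleosomes. Such promoters are known for CpG islands, stretches rich in unmethylated CG dinucleotides, and for a lack of TATA boxes. They are common among genes for DNA repair, mitochondria and the cell cycle, which most cells express. Factors known to bind promoters of this kind include the ETS family member GABP, NRF1, YY1 and NF-Y.

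The spans between both 5' ends differed widely in letters and in state, and those below show the range. All are on the plus strand of mm10, read 5' to 3', so the gene named first is transcribed to the left and the gene named second to the right. Capitals mark exact matches, on either strand, to the motifs searched: the NF-Y motif CCAAT and its extended form GCCAATC, which contains it, the SP and KLF motif GGGCGG, the ETS motif CCGGAAG, the NRF1 motif GCGCATGC, the YY1 motif AAGATGGCG, the ZNF143 motif ACTACAA, the ZBTB33 motif CTCGCGAG and the TATA box TATAAA. A motif on the other strand appears as its reverse complement. Col4a4-Col4a3 is a textbook pair, here without a peak. The next 4 belong to the pairs with the highest peaks by the lower percentile over both replicates. Npc2-Isca2, Cep57l1-Sesn1 and Mepce-Zcwpw1 show an ETS, an NRF1 and a YY1 motif and were chosen after their values were seen, as were the 2 histone pairs, of which 1 is open and 1 has no peak.
Col4a4-Col4a3, chr1:82586850-82586920: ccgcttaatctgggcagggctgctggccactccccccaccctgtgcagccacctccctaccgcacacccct
Cdc40-Wasf1, chr10:40883312-40883474: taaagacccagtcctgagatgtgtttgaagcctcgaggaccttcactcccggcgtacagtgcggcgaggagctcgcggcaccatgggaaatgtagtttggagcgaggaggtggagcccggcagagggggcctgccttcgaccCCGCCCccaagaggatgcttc
Fbxo24-Lrch4, chr5:137629003-137629120: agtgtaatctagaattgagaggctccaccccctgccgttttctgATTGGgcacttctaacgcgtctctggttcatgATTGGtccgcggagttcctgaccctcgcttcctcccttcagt
Nfya-Oard1, chr17:48409907-48410013: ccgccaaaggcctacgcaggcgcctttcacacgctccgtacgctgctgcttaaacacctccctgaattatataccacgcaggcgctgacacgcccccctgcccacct
Styxl1-Mdh2, chr5:135778386-135778479: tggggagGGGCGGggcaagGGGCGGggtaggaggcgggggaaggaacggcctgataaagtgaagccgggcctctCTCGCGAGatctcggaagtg
Npc2-Isca2, chr12:84773153-84773250: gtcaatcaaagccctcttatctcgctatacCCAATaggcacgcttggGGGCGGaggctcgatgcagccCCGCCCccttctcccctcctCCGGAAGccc
Cep57l1-Sesn1, chr10:41809872-41809934: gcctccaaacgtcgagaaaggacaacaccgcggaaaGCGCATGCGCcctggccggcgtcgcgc
Mepce-Zcwpw1, chr5:137787656-137787797: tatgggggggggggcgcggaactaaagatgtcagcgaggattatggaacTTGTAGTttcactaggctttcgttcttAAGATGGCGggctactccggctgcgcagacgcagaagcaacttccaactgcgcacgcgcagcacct
Hist1h2an-Hist1h2bp, chr13:21787219-21787460: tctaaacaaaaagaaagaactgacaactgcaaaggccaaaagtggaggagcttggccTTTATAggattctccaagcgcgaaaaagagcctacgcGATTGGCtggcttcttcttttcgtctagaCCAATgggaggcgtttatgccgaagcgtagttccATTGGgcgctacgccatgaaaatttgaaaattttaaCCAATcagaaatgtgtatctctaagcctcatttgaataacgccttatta
Hist1h2ap-Hist1h2br, chr13:21833508-21833742: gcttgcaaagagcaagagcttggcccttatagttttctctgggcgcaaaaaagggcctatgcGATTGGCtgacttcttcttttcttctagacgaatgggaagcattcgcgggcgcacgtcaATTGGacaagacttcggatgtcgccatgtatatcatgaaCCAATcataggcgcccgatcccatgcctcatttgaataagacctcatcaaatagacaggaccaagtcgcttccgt

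Nearly all head-to-head regions were open. A peak of each replicate lay in 682 of the 734 regions (92.9%, 95% Wilson interval 90.8% to 94.6%), against 52.5% of the promoter windows of all protein-coding genes. The share was 93.3% in replicate 1 and 93.2% in replicate 2, a mean of 93.3% ± 0.0963 (SD, n = 2). For comparison, 18126 single promoters were taken, those of genes with no other protein-coding 5' end within 1000 bp. Their windows had the median length of the pair regions, 629 bp, running from 378 bp upstream to 250 bp downstream of the 5' end. A peak of both replicates lay in 8628 of these (47.6%, 46.9% to 48.3%). The difference between pairs and single promoters was 43.7 percentage points in replicate 1 and 44.5 in replicate 2, a mean of 44.1 ± 0.567 (SD, n = 2). The intervals cover counting error only, and no test was made over regions, since pairs are not replicates of a condition. Single promoters with a noncoding gene starting within 1000 bp upstream on the other strand lay in between, with a peak of both replicates in 615 of 832 (73.9%, 70.8% to 76.8%).

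The share hardly depended on how far apart both 5' ends were. It was 94.8% at up to 100 bp, 90.5% up to 200 bp, 93.8% up to 300 bp, 95.3% up to 500 bp and 88.2% (78.5% to 93.9%) up to 1000 bp. Single promoters in windows lengthened alike were open in 47.2% to 49.1%. Between 800 and 1000 bp apart, just inside the limit for a pair, 15 of 15 regions had a peak of both replicates. Of pairs just outside, 1000 to 1200 bp apart, 17 of 19 had one.

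CpG content differed strongly between pairs and single promoters, and it moved with the open share in both. The CpG ratio is the number of CG dinucleotides over that which the base composition alone would give, here in 400 bp centred on a pair, or centred 64 bp upstream of a single 5' end. Its median was 0.842 in pairs and 0.501 in single promoters, and 86.8% of pairs against 43.3% of single promoters had a ratio of 0.6 or more. At a ratio under 0.2, 7 of 17 pairs were open (41.2%, 21.6% to 64.0%), against 6.91% of 4545 single promoters. From 0.2 to 0.4 the shares were 66.7% and 21.8%, from 0.4 to 0.6 85.7% and 50.5%, and from 0.6 to 0.8 92.4% and 74.7%. At ratios from 0.8 to 1.0 the open share was 97.5% of 319 pairs and 86.1% of 3457 single promoters, and above that 97.5% and 89.0%. In all 6 classes the pairs had the higher share. With single promoters weighted to the CpG classes of the pairs, an alternative chosen after seeing the data, 76.9% of them were open, which left a difference of 16.1 percentage points. The part of CpG content in the remaining difference was not tested.

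**Figure D1:**
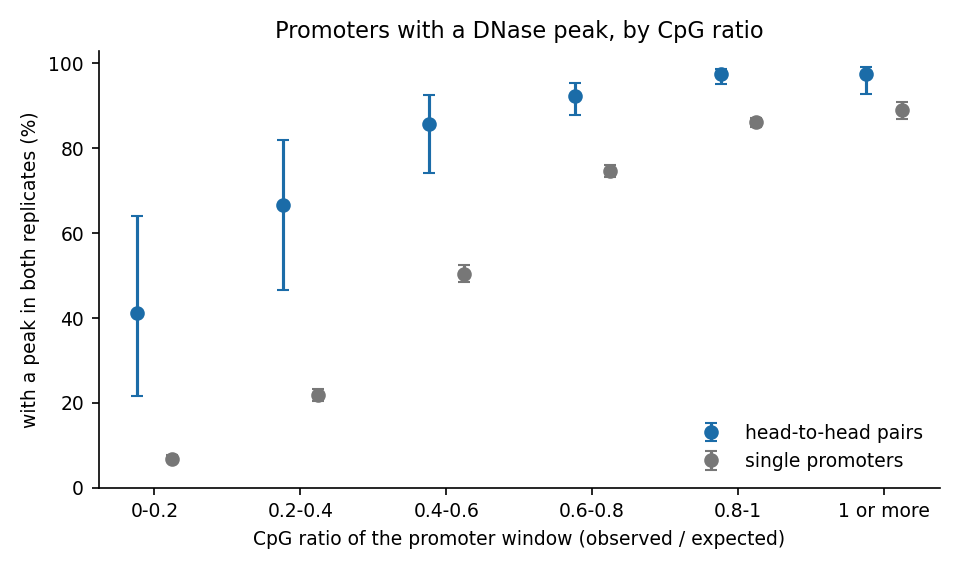
Share of promoters with a peak in both replicates (vertical axis, %) by CpG ratio (horizontal axis, observed over expected), for head-to-head pairs (blue) and single promoters (grey), with 95% Wilson intervals. The pairs lie above the single promoters in every class, from 41.2% against 6.91% in the lowest class to 97.5% against 89.0% in the highest.

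Open pairs carried strong peaks. The deposited score has no stated meaning, so peaks were ranked within their own list, and a percentile of 100 is the strongest peak of the library. The highest peak of an open pair had a median score of 143 in replicate 1 and 135 in replicate 2, against 133 and 125 in open single promoters. Its median percentile was 97.6 in replicate 1 and 97.4 in replicate 2, against 94.2 and 94.7. The highest peak belonged to the strongest 10% of the library's peaks in 93.6% and 94.3% of open pairs, against 66.0% and 68.2% of open single promoters. Among promoters with a CpG ratio of 0.6 or more, these shares were 95.4% and 96.2% of open pairs against 78.9% and 80.8% of open single promoters. Open single promoters with a divergent noncoding gene lay in between, at 83.4% in replicate 1 and 84.9% in replicate 2. Their median percentile was 96.9 in each replicate.

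Cdc40-Wasf1, Styxl1-Mdh2, Nfya-Oard1 and Alg12-Creld2 had the highest peaks when pairs were ranked by the lower percentile over both replicates, with a score of 150 in replicate 1 and 149 in replicate 2 each. Cdc40 is a splicing factor, and Wasf1 promotes actin assembly. Mdh2 is the mitochondrial malate dehydrogenase, Nfya a subunit of NF-Y, and Alg12 a mannosyltransferase of N-glycan synthesis. Fbxo24-Lrch4, with scores of 150 and 148, had the same lower percentile as Cdc40-Wasf1. Thap2-Zfc3h1 and Aamp-Pnkd followed with 150 and 147 each, then Galns-Trappc2l with 150 and 146. The lower percentile of Galns-Trappc2l was also that of Rita1-Ddx54 and Nabp2-Rnf41. In Styxl1-Mdh2 both replicates placed the highest peak at chr5:135778436-135778585, over the right part of the span printed above with its CTCGCGAG, and over the start of Mdh2. In Nfya-Oard1, whose span holds none of the motifs, the highest peak differed between replicates. It was chr17:48409736-48409885 in replicate 1, within Nfya, and chr17:48409976-48410125 in replicate 2, over the start of Oard1.

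Of the textbook pairs named here, the collagen pair was the one without a peak. Atm, the kinase that signals DNA double-strand breaks, starts 307 bp from Npat, a coactivator of histone genes. Their region had 1 peak per replicate, between both starts, with scores of 147 and 143, under a hotspot of 2143 bp in replicate 1 and 2374 bp in replicate 2. Mcm4, a subunit of the replicative helicase, starts 466 bp from Prkdc, the catalytic subunit of the DNA-dependent protein kinase. This region had 2 peaks in each replicate, and the highest scored 145 in both. Gart, an enzyme of purine synthesis, starts 554 bp from Son, an RNA-binding splicing cofactor. Of their 2 peaks per replicate, the highest scored 149 and 143 and lay at chr16:91647696-91647845, inside Son and downstream of its annotated 5' end at 91647506. Col4a4-Col4a3, which encodes collagen chains of the basement membrane in the kidney, had no peak and no hotspot in either replicate. Of the 32-base sequences of its region, 100% occur once on the main chromosomes. The cause of the missing peak was not tested.

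Hotspots over head-to-head pairs were broad and usually covered both starts. A single hotspot lay over both 5' ends in each replicate in 642 of 734 pairs (87.5%, 84.9% to 89.7%), while the 5' end of a single promoter lay in a hotspot of both replicates in 46.0%. This share of pairs was 93.5% at a distance up to 100 bp, 89.0% up to 200 bp, 84.4% up to 300 bp, 90.6% up to 500 bp and 57.4% up to 1000 bp. The median width of these hotspots was 1674 bp in replicate 1 and 1618 bp in replicate 2, against 1325 and 1260 bp over single promoters. At a CpG ratio of 0.6 or more it was 1670 and 1623 bp, against 1417 and 1355 bp. Over single promoters with a divergent noncoding gene it was 1524 and 1485 bp. A pair's hotspot had to reach both 5' ends and a single promoter's only its own, so these widths differ in kind. In pairs the median was 1455 and 1424 bp at up to 100 bp apart, and 2199 and 2126.5 bp at over 500 bp. By the smaller of both widths, the widest covered Mrps18b-Ppp1r10, at 4246 bp in the first replicate and 3825 bp in the second. Mrps18b is a protein of the mitochondrial ribosome and Ppp1r10 a regulatory subunit of protein phosphatase 1. The hotspot over Peg3-Usp29, paternally expressed imprinted genes, measured 3672 and 4362 bp. Those over Senp8-Myo9a (3570 and 3600 bp), Rnf5-Agpat1 (3729 and 3594 bp), Zbtb25-Zbtb1 (3512 and 3405 bp) and Srgap2-Fam72a (3618 and 3397 bp) were next.

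The highest peak of most pairs lay between both starts. It was centred there in 404 of 685 open pairs in replicate 1 (59.0%) and in 432 of 684 in replicate 2 (63.2%), while the span makes up 23.3% of these regions in replicate 1 and 23.2% in replicate 2. The other highest peaks showed no side: 136 lay within the gene on the minus strand and 145 within the gene on the plus strand in replicate 1, and 126 and 126 in replicate 2. In open single promoters the highest peak was centred upstream of the 5' end in 61.5% in replicate 1 and 66.6% in replicate 2. Their windows run 378 bp upstream and 250 bp downstream, so a place upstream of the start is not particular to pairs. The median distance of the peak centre from the midpoint of both 5' ends was 46.0 bp in replicate 1 and 38.0 bp in replicate 2. In pairs up to 100 bp apart, where the span is narrower than a peak of 150 bp, 116 of 290 highest peaks in replicate 1 and 132 of 291 in replicate 2 were centred between the starts, and 63.1% and 69.1% covered both of them. Between 100 and 200 bp the centred share was 74.3% and 77.5%, up to 300 bp 73.3% and 76.7%, and up to 500 bp 79.0% and 82.0%. In the farthest pairs it was 61.7% in replicate 1 and 66.7% in replicate 2, close to the 58.0% of these regions that the span makes up. These values depend on which start is used, since a gene's 5' end is that of its outermost transcript. With the median start of each gene's protein-coding transcripts, which lie a median of 406 bp apart in 727 pairs, 85.3% of highest peaks lay between both starts. A wider stretch takes in more peak centres by its width alone. The share of the region that this stretch makes up is not given, so 85.3% cannot be set against the shares above.

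**Figure D2:**
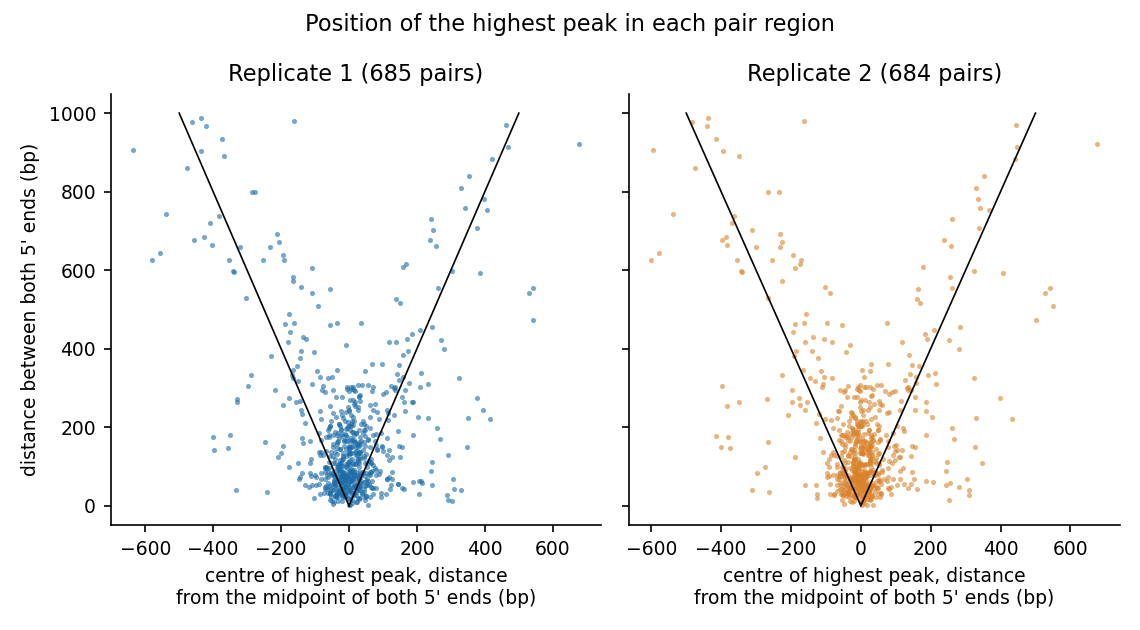
Distance of the highest peak's centre from the midpoint of both 5' ends (horizontal axis, bp, negative toward the gene on the minus strand) against the distance between both 5' ends (vertical axis, bp), with 1 point per open pair and 1 panel per replicate. The black lines mark both 5' ends. Points gather around the midpoint at short distances, with a median distance from it of 46.0 bp in replicate 1 and 38.0 bp in replicate 2, and approach the lines at long distances.

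Pairs with their starts far apart more often had separate peaks. An open region held 1.50 peaks on average in replicate 1 and 1.47 in replicate 2, against 1.29 and 1.30 in open single promoters. At up to 100 bp, 25.5% of open pairs in replicate 1 and 24.1% in replicate 2 had 2 or more peaks, close to the 23.1% and 23.3% of single promoters in windows of the same length. Over 500 bp the shares were 76.7% and 85.0%, against 50.4% and 51.6%. Urod-Hectd3, with starts 904 bp apart, had 5 peaks in replicate 1 and 3 in replicate 2. Urod is an enzyme of heme synthesis and Hectd3 a ubiquitin ligase. Zfp672-Sh3bp5l had 3 and 4 peaks, Rgs9bp-Ankrd27 4 and 3, and Aurka-Cstf1, with starts only 146 bp apart, 3 in each. Aurka is the mitotic Aurora A kinase and Cstf1 a factor of mRNA 3' end cleavage.

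**Figure D3:**
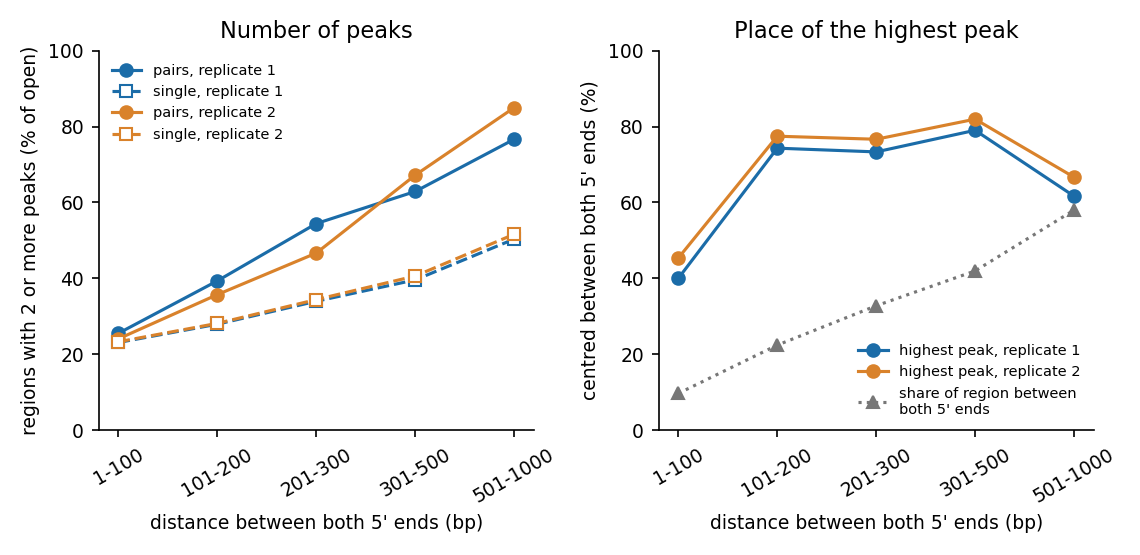
Left, share of open regions with 2 or more peaks (vertical axis, %), for pairs (filled points) and for single promoters in windows of the same length (open squares), by distance between both 5' ends (horizontal axis, bp). Right, share of open pairs whose highest peak is centred between both 5' ends, with the share of the region that the span makes up (grey triangles). Replicate 1 is blue and replicate 2 orange. The pairs start near the single promoters, at 25.5% against 23.1% in replicate 1, and reach 76.7% against 50.4%.

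With increasing distance, fewer pairs had a peak at each of both starts. Within 100 bp of each 5' end, peaks of both replicates were found at both ends in 89.2% of pairs up to 100 bp apart, 81.0% up to 200 bp, 57.3% up to 300 bp, 45.3% up to 500 bp and 45.6% up to 1000 bp. A single peak can reach both windows up to about 350 bp, and in replicate 1 such a peak was found in 275, 164, 50, 3 and 0 pairs of these classes. In the 68 farthest pairs 31 had a peak at both ends, 12 only at the gene on the minus strand, 12 only at the gene on the plus strand and 13 at neither. Both ends were open in Btf3l4-Txndc12, 987 bp apart with 3 peaks in each replicate, and in Wrn-Purg, Cbx5-Hnrnpa1 and Mrpl41-Pnpla7. Wrn is the helicase lost in Werner syndrome, Cbx5 the heterochromatin protein HP1 alpha, and Hnrnpa1 a splicing regulator. Only the end of Tmem126b, which assembles mitochondrial complex I, had a peak of both replicates in Tmem126b-Dlg2. No peak of both replicates lay within 100 bp of the annotated 5' end of Dlg2, a scaffold of neuronal synapses. A hotspot still covered both starts, at 1860 bp in replicate 1 and 1755 bp in replicate 2. Only the plus-strand gene's end had a peak of both replicates in Tas1r1-Nol9, Actn3-Zdhhc24 and Pecam1-Milr1. In Tas1r1-Nol9 a hotspot covered both starts too, at 2182 bp in replicate 1 and 2071 bp in replicate 2. Tas1r1 is a taste receptor, Nol9 a kinase of ribosomal RNA processing, Actn3 an actinin of fast muscle, and Pecam1 an adhesion molecule of endothelium and blood cells.

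The pairs were then read by the role of their genes, from lists set by gene symbol. Of all 734 pairs 92.9% were open, and of 429 pairs in no list 90.9%. The shares of most lists lie near these and are given as a description. Pairs with a gene of DNA replication and repair were open in 47 of 48 cases, and the median of the lower percentile over both replicates was 97.2 in these. Single promoters of the same list were open in 94 of 106 cases. The highest peaks were those of Abhd12-Gins1 (scores 147 and 145), Aimp2-Pms2 (148 and 143) and Atm-Npat. In Abhd12-Gins1, with starts 659 bp apart, the highest peak lay at the start of Abhd12, and no peak of both replicates lay within 100 bp of the 5' end of Gins1. Gins1 is a subunit of the replicative helicase complex and Pms2 a mismatch repair protein. Rad51c-Tex14 had no peak in its region, though a hotspot of each replicate reached it and a peak of each replicate lay at another annotated start of both genes. Rad51c takes part in homologous recombination.

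Mitochondrial proteins were represented by 51 pairs, of which 50 were open, against 145 of 162 single promoters. Tepsin-Ndufaf8 scored 148 and 142, and Ndufa2-Ik 149 and 143. Ndufa2 and Ndufaf8 belong to complex I and its assembly. Only Ndufa5-Asb15 had no peak in the region, and there a peak of both replicates lay at another annotated start of Ndufa5. A hotspot covered both 5' ends of this pair, at 1230 bp in replicate 1 and 776 bp in replicate 2.

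Of 75 pairs with genes of transcription, RNA processing and translation, 74 were open, against 280 of 314 single promoters. Swt1-Trmt1l scored 149 and 148, Rita1-Ddx54 150 and 146, and Lnx2-Polr1d 149 and 146. Ddx54 is an RNA helicase and Polr1d a subunit of RNA polymerases I and III. The remaining pair, Rnf151-Rps2, had a peak only in replicate 2, with a score of 26.

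Centrosome and cilia genes were open in 21 of 21 pairs and in 62 of 65 single promoters. Rpgrip1l-Fto scored 148 in both replicates, Cep170-Sdccag8 148 and 147, and Cep57-Fam76b 148 and 143. Rpgrip1l acts at the transition zone of the cilium, and Fto is an RNA demethylase. Ubiquitin and proteasome genes were open in 41 of 43 pairs against 217 of 332 single promoters, and vesicle and membrane traffic genes in 26 of 27 against 184 of 223. Fbxo24-Lrch4 and Galns-Trappc2l led these 2 groups. Best1-Rab3il1, the only closed pair of the traffic list, starts with the ion channel Best1 of the retinal pigment epithelium. A peak of both replicates lay at another annotated start of Rab3il1.

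Chaperone genes were open in 19 of 20 pairs and 69 of 86 single promoters. Tecr-Dnajb1 scored 150 and 144, Hsp90b1-Ttc41 149 and 143, and Bag4-Lsm1, whose starts are 1 bp apart, 148 and 142. Hsp90b1 is the HSP90 of the endoplasmic reticulum. Hspa1a-Hspa1l, with the inducible HSP70 gene Hspa1a, had no peak, and 65.9% of the 32-base sequences of its region occur once on the main chromosomes. Zinc finger genes were open in 22 of 23 pairs and 298 of 403 single promoters, with Zbtb26-Rabgap1 among the highest. As the list goes by symbol, it also holds Rbbp4-Zbtb8os, although neither gene encodes a zinc finger protein. Zbtb6 shares the region of Zbtb26-Rabgap1. Zfp558-Mbd3l1 was the closed pair, though a peak of both replicates lay at another annotated start of Zfp558.

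The list of tissue-restricted families holds olfactory, vomeronasal, taste, keratin, defensin, metalloproteinase and immune families. Of its 6 pairs 6 were open, near the 92.9% of all pairs. Of its 2107 single promoters 67 (3.18%) were open, but the families were not matched between pairs and single promoters. In Nt5c3-Vmn1r4, which joins a nucleotidase gene to a vomeronasal receptor gene 83 bp away, the only peak scored 144 in replicate 1 and 135 in replicate 2 and covered both starts. Adam9-Tm2d2 scored 147 and 141, Fbxo38-Spink10 146 and 140, and Tas1r1-Nol9 134 and 109. Ifit1bl2-Ifit1, interferon-induced genes, had weak peaks of 37 and 26. Such a region belongs to both genes, so a peak does not say which of them is active. Of 5 pairs with genes from a neuronal list 3 were open, against 145 of 411 single promoters of this list and 92.9% of all pairs: Nlgn2-Tmem256 (148 and 136), Tmem126b-Dlg2 (147 and 147) and Grik5-Zfp574 (92 and 79). Nlgn2 is an adhesion molecule of inhibitory synapses.

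The histone pairs were described by distance, motifs and repeated sequence. Core histone genes whose expression is tied to DNA replication lie in clusters, often as an H2A gene and an H2B gene back to back. Of 14 pairs with such a gene, 12 joined H2A to H2B, and their 5' ends were a median of 259.5 bp apart. A TATA box lay in 9 of the 14 spans, against 20 of the other 720 pairs, whose spans are mostly shorter. All 14 spans held 2 or more CCAAT boxes, for which no count over the other pairs is given. At least 1 CCAAT box lay in the 400 bp windows of 48.8% of all pairs, a different measure. Peaks of both replicates lay in 10 of the 14 regions, against 32 of 39 single histone promoters, but a hotspot of both replicates covered both starts in only 2 of 14. In Hist1h2an-Hist1h2bp, printed above with its TATA box and 4 CCAAT boxes, the peak scored 143 in replicate 1 and 136 in replicate 2. Hist1h2ah-Hist1h2bk scored 140 and 141, and Hist1h2ag-Hist1h2bj 139 and 136. Hist1h2bf-Hist1h2ad had a peak only in replicate 1, with a score of 54, and so had Hist1h2ba-Hist1h2aa, whose genes encode variants of the testis, with a score of 20.

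Hist1h2bq-Hist1h2ao and Hist1h2ap-Hist1h2br had no peak, and none of their 32-base sequences occurs only once on the main chromosomes. Reads of that length cannot be assigned to a single place there. The read length is not given in the labels, and the part of repeated sequence in missing peaks was not tested. In the other 12 histone regions, 46.5% to 97.3% of such sequences were unique. Over all pairs, 42 regions had under 90% unique 32-base sequences, 34 of them among the 682 open pairs and 7 among the 47 without a peak. Among single promoters, 3014 of 18126 were under 90%.

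The 47 pairs without a peak in either replicate ranged from genes of single tissues to broadly expressed ones. Their median CpG ratio was 0.602, against 0.853 in open pairs, and 24 of them had a ratio of 0.6 or more. The following were named after their values were seen. Stag3 and Smc1b, parts of meiotic cohesin, were in Gpc2-Stag3 and Smc1b-Ribc2, and Spata22, of meiotic recombination, was in Aspa-Spata22. Tssk3-Fam229a and Dgcr2-Tssk2 hold testis-specific kinases, and Nt5c3b-Klhl10 and Lyzl4-Vipr1 hold spermatid genes. Duox2-Duoxa2 makes hydrogen peroxide for thyroid hormone synthesis, Klc3-Ckm holds muscle creatine kinase, and Smyd1-Cd8b1 joins a muscle methyltransferase to a T-cell coreceptor. Bhmt2-Dmgdh holds liver enzymes of methyl group metabolism. Broadly expressed genes among the 47 include Surf4, a cargo receptor of the endoplasmic reticulum, Ccnt1, the cyclin of the elongation factor P-TEFb, and Rad51c and Ndufa5. Each of these genes had a peak of both replicates at another of its annotated starts. The same held for Klc3, Dgcr2 and Nt5c3b, whose pairs are named above for muscle, testis or spermatid genes. As the names were chosen with values known, they give no contrast between broadly expressed genes and genes of single tissues. In 17 of the 47, a peak of both replicates lay within 250 bp of another annotated protein-coding start of either gene, as in Surf4-Stkld1 and St5-Akip1. In 9 pairs a peak of each replicate lay within 1000 bp of the region, and in 3 a hotspot of each replicate reached it. Several of these pairs share a gene and a region, such as Aspa-Spata22 with Aspa-Gm49340, so the 47 are not independent.

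Sequence motifs of the windows differed between pairs and single promoters. Most pair windows hold the 5' ends of 2 genes and a single window that of 1. Weighting by CpG class leaves this as it is, and its part in the motif shares was not tested. The ETS motif CCGGAAG was present in 227 of 734 pairs (30.9%, 27.7% to 34.4%) within 400 bp around the midpoint, on either strand and without mismatch, against 10.9% of 18126 single promoters. With single promoters weighted to the CpG classes of the pairs the share was 18.2%. Of the 47 pairs without a peak 2 held it, and of the 682 open pairs 225. Other motifs had the opposite order: the E2F motif was in 23.4% of pairs without a peak and 14.1% of open ones, and the ZBTB33 motif in 8.51% and 3.52%. The YY1 motif AAGATGGCG was found in 6.68% of pairs (5.09% to 8.72%) and 2.02% of single promoters (3.91% weighted), and the ZBTB33 motif CTCGCGAG in 3.81% (2.65% to 5.46%) and 1.13% (2.47% weighted). The NF-Y motif GCCAATC was found in 17.0% of pairs (14.5% to 19.9%) and 8.12% of single promoters (10.6% weighted).

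The NRF1, SP and KLF, E-box and AP-1 motifs differed from single promoters by little once CpG classes were matched. GCGCATGC, the NRF1 motif, was found in 7.49% of pairs and 3.40% of single promoters, but in 6.35% of weighted ones, inside the interval of the pairs (5.80% to 9.63%). GGGCGG, bound by SP and KLF factors, was found in 74.4% and 45.8%, and in 74.1% when weighted. The E-box CACGTG was found in 12.7% of pairs and 8.82% of single promoters, with 12.7% when weighted. The TATA box, sought as TATAAA, was rarer in pairs, with 5.59% (4.14% to 7.49%) against 16.2% and 8.63% when weighted, still above that interval. The AP-1 motif TGANTCA was found in 4.36% (3.10% to 6.09%) against 9.02% and 4.93%. CRE (TGACGTCA), ZNF143 (ACTACAA), E2F (TTCCCGC), RFX (GTTGCCATG), the short NF-Y motif CCAAT and a heat shock element (GAANNTTC) were also sought and are plotted with the others. For CCAAT the difference was larger with weighting, with 48.8% of pairs against 44.1% of single promoters and 40.8% of weighted ones. A match is a description of the letters, not a bound site.

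**Figure D4:**
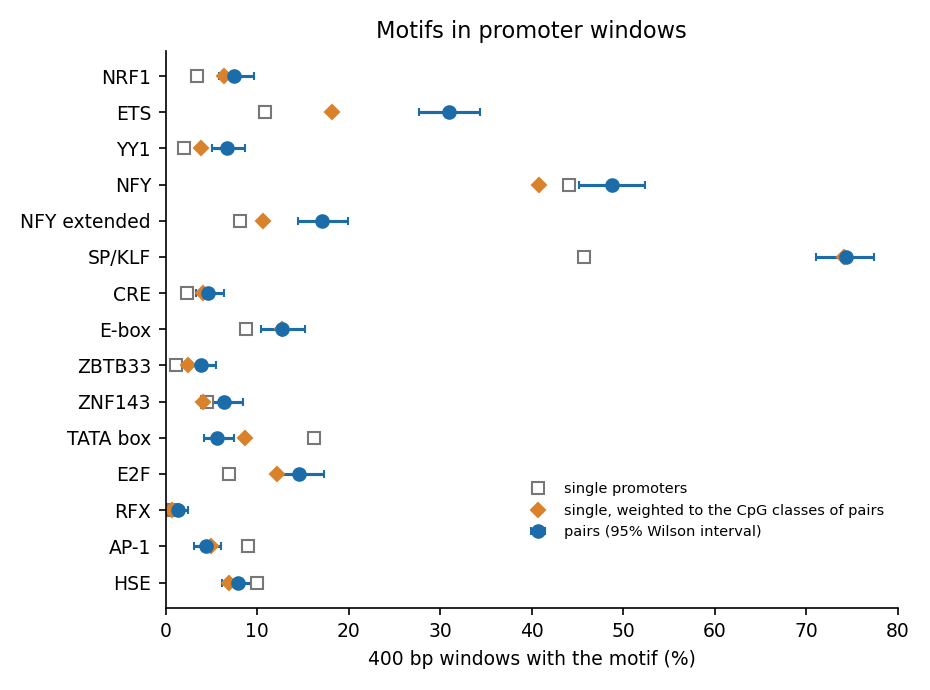
Share of 400 bp promoter windows with an exact motif match on either strand (horizontal axis, %) for 15 motifs (vertical axis), in head-to-head pairs (blue, with 95% Wilson intervals), single promoters (open squares) and single promoters weighted to the CpG classes of the pairs (orange). The widest gap left after weighting is that of the ETS motif, 30.9% against 18.2%, while SP/KLF is at 74.4% and 74.1%.

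In both replicates, 12 of the 15 motifs were more frequent under the highest peaks than in a flank. The flank was taken on 1 side only, toward the gene on the plus strand. The RFX motif is among the 12 with few matches, 4 peaks against 2 flanks in replicate 1 and 5 against 2 in replicate 2. In replicate 1, 22.5% of the highest peaks of pairs held CCGGAAG, against 1.17% of the 150 bp lying 1000 bp toward higher coordinates, and in replicate 2 22.4% against 1.32%. GCCAATC was under 12.8% and 13.9% of highest peaks, against 0.584% and 0.439% of flanks. TATAAA had the opposite order, with 1.31% and 1.02% of peaks against 8.32% and 8.48% of flanks. The AP-1 motif was in 2.19% and 1.90% of peaks against 2.92% and 3.51% of flanks, and the heat shock element in 1.61% and 1.90% against 3.50% and 4.39%. Peaks and flanks differ in base composition, and its part in these shares was not tested.

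The replicates placed and ranked the peaks of pairs alike. In 646 of the 682 pairs open in both (94.7%) the highest peaks of both replicates overlapped. The median absolute difference of their percentiles was 0.908, and Spearman's rho was 0.842 over these pairs, as a description, since pairs are not replicates. The score was higher in replicate 1 for 625 pairs, higher in replicate 2 for 41 and equal for 16, while the percentile was higher in replicate 1 for 350 and in replicate 2 for 332. Apart from pairs with clone names, the largest differences toward replicate 1 were in Stap2-Mpnd (percentiles 48.4 and 14.5), Slc27a5-Trim28 (38.8 and 14.5) and Sncg-Mmrn2 (71.7 and 52.6). The largest toward replicate 2 were in Kif24-Nudt2 (34.7 and 50.3), Obsl1-Inha (74.5 and 88.2) and Sirt1-Dnajc12 (30.2 and 42.8). Trim28, a corepressor of retroelements, and Sirt1, a deacetylase, are broadly expressed. In Slc27a5-Trim28 the only peak lay at chr7:12999256-12999405, downstream of the annotated start of Trim28 at 12999114.

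**Figure D5:**
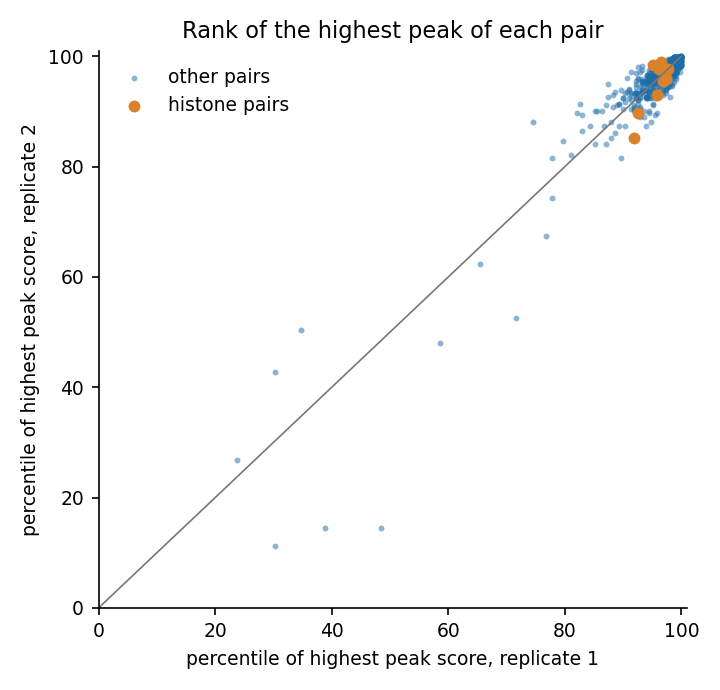
Percentile of the highest peak's score within its own list, replicate 1 (horizontal axis) against replicate 2 (vertical axis), for the 682 pairs with a peak in both, with histone pairs in orange and the line of equality in grey. Nearly all points lie in the upper right corner, with median percentiles of 97.6 and 97.4 over open pairs, and few lie far from the line.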

How the data were processed

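The authors deposited peaks and hotspots per library, not pooled, in mm10, per the labels. The sources used here name no aligner or caller. The authors' peak score (1 to 150) has no stated meaning and only ranked peaks within a list. The authors' −log10 FDR of hotspots was not used. Repeated entries were counted once. Starts came from GENCODE M21 and sequence from GRCm38.p6 (RefSeq). A region was open where at least 1 bp of a peak of each replicate lay in it. Shares have 95% Wilson intervals. With 1 group of 2 replicates, no test was made. Named pairs were those with the highest peaks, widest hotspots, most peaks, extreme distances and largest replicate differences, the leading and closed pairs of each gene list, and textbook pairs; clone names were passed over, and some named pairs are not reported here. Members and lists were chosen with earlier results of these data known. On simulated data, 242 of 242 planted pairs and their states were recovered. Scripts ran under Python 3.11.15 with pandas 2.3.3, numpy 2.4.6, scipy 1.17.1 and, for unique 32-base sequences, numba.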

Additional observations from a re-analysis of the deposited data

Results flagged for a closer look

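Head-to-head pairs of chromosome X are not members, and their peaks are data outside the main measurement. Of 20 such pairs, 14 had a peak of both replicates (70.0%, 95% Wilson interval 48.1% to 85.5%), against 92.9% of the autosomal pairs. The highest peaks of Idh3g-Ssr4 scored 145 in replicate 1 and 138 in replicate 2, and those of Ribc1-Smc1a 142 and 140. Idh3g is a subunit of mitochondrial isocitrate dehydrogenase and Smc1a a cohesin subunit. No peak of either replicate lay in Asb12-Pfn5, Gm9112-Dmrtc1b, Dmrtc1a-1700011M02Rik, Nup62cl-Pih1h3b and Trpc5-Rtl4, and Ptchd1-Gm15155 had one only in replicate 1. The difference from the autosomes was not tested.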

How the results depend on the processing

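The share of open pairs and its excess over single promoters kept their direction under every alternative tried. The order below is pairs, single promoters and their difference in percentage points, with 92.9%, 47.6% and 45.3 as reported for peaks of both replicates. They were 92.8%, 46.2% and 46.6 with 75 bp of overlap, 92.0%, 44.1% and 47.9 with the stronger 50% of peaks, and 93.3%, 48.9% and 44.5 with hotspots. With margins of 100 bp they were 91.3%, 44.0% and 47.3, with 500 bp 93.3%, 49.5% and 43.8, and with 250 bp around each gene's 5' end 91.0%, 46.9% and 44.1. With 1 replicate left out they ranged from 93.2% to 93.3%, 48.7% to 49.6% and 43.7 to 44.5. Limiting pairs to 500 bp gave 93.4%, and adding overlapping pairs 92.5%. Without single promoters that have a divergent noncoding gene, 46.3% were open and the difference was 46.6. The next alternatives were chosen after seeing the data. Counting any annotated protein-coding start gave 92.1%, 51.7% and 40.4, and windows with at least 90% unique 32-base sequences gave 93.6%, 53.5% and 40.1. Weighting by CpG class gave 76.9% of single promoters and a difference of 16.1.

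A hotspot over both starts was found in 90.5% at up to 500 bp, and in 87.9% to 88.0% with 1 replicate left out, against 87.5%. The mean share of highest peaks between both starts, 61.1%, became 85.3% with median transcript starts, which lie farther apart. Peaks per open region, 1.49 as a mean of both replicates, were 1.29 with 75 bp of overlap, 1.46 with the stronger peaks, 1.19 and 2.13 with margins of 100 and 500 bp, and 1.42 at up to 500 bp. Of the motifs, 2 changed direction with CpG weighting: the E-box, from 3.85 percentage points more in pairs to -0.0327, and the heat shock element, from -2.05 to 1.02. Depth is unknown, so regions that lack a peak may still be open, and regions of repeated sequence cannot be judged.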

Other observations

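The annotation also holds 446 head-to-head pairs whose 5' ends overlap, and 409 of these (91.7%, 95% Wilson interval 88.8% to 93.9%) had a peak of both replicates. Hspd1-Hspe1, which encodes the mitochondrial chaperonin HSP60 and its cofactor HSP10, scored 147 in replicate 1 and 141 in replicate 2. Ppat-Paics, of purine synthesis, scored 147 and 132, Sirt3-Psmd13 145 and 136, and Surf1-Surf2 132 and 115. Psmb9-Tap1, of antigen presentation, scored 141 and 133. Col4a1-Col4a2, the collagen IV pair of most basement membranes, scored 90 and 53, in contrast to Col4a4-Col4a3, which had no peak.

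Pairs whose symbols are clone names numbered 83, and 66 of them were open in both replicates. They made up 16 of the 47 pairs without a peak.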
